A study of Mus musculus with 8 samples.

Results

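The clustered protocadherins are cell-surface proteins of the cadherin superfamily that are encoded side by side in an alpha, a beta and a gamma cluster on mouse chromosome 18. All genes of the deposited table whose symbol is Pcdha, Pcdhb, Pcdhga, Pcdhgb, Pcdhgc or Pcdhac followed by a number were taken as members, which gave 57 of 34478 genes. Of these, 13 belong to the alpha cluster (2 of them C-type, Pcdhac1 and Pcdhac2), 22 to the beta cluster and 22 to the gamma cluster. The gamma cluster holds 12 members of type A (Pcdhga), 7 of type B (Pcdhgb) and 3 of type C (Pcdhgc3, Pcdhgc4 and Pcdhgc5).

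The protocadherins of these clusters bind the same isoform on a neighbouring cell and are best known from neurons, where each cell uses its own small choice of them and so carries a surface identity. The choice is made at the promoters: each variable exon of the alpha and gamma clusters has a promoter of its own and is spliced to constant exons shared by its whole cluster, whereas a beta gene is a single exon with no constant part. The zinc finger protein CTCF and the cohesin ring join a chosen promoter to distant enhancers, while DNA methylation and repressors such as SMCHD1 and SETDB1 hold others silent. C-type members escape this random choice in many neurons.

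Murine pancreatic ductal adenocarcinoma (PDAC) cells of 4 primary lines, numbered #1, #3, #5 and #10, were treated for 48 h with trametinib, an inhibitor of the kinase MEK (MEKi), or with DMSO as control, for which the labels give no time. Each line gave 1 library of polyA RNA per treatment, 8 libraries in all. All lines came from a mouse model of pancreatic cancer that carried Trp53 loxP/loxP and Ptf1a wt/Cre, so that in controls and treated cells alike Cre under control of Ptf1a, a gene of pancreatic progenitor and acinar cells, is designed to delete part of Trp53. Counts of Trp53, at 275 to 355 with DMSO and 196 to 278 with trametinib, are given per gene and so do not check the deletion. Trametinib was given at the IC50 of each line, and its doses are not given in the sources used here. The labels do not say whether the lines came from separate animals. The p-values for trametinib measure the spread of its effect over these 4 lines, from which noise of the libraries cannot be told apart. A difference between lines in their response cannot be tested with 1 library per line and treatment.

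Values are normalized counts as the authors deposited them, and library totals lay between 30680091 and 36385719. The smallest step between low values put depth at about 29300000 to 45900000 reads per library and 3 reads at 2.33 to 3.72 normalized counts, a limit used below as the floor. Of 12 genes driven by MAPK signaling, 11 fell with trametinib and none rose, among them the MAPK phosphatase Dusp6 (log2 fold change -2.51, SE 0.14, adjusted p = 0.00012 in limma). The fold changes of single genes are differences of log2(value + 1), trametinib minus DMSO, fitted with limma with the line as a block, and this scale understates the change of low genes. Their p-values are adjusted by Benjamini-Hochberg over all genes tested, with a threshold of 0.05.

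Clustered protocadherins were higher with trametinib. Over all 57 members, 39 were higher in 4 of 4 lines, 18 of the beta cluster, 19 of the gamma cluster and 2 of the alpha cluster, against 21.5% of the 31080 genes that were above 0 in any library. None of the 57 was lower in 4 of 4 lines, 9 were lower in at least 1 line, and Pcdha7, Pcdhac2 and Pcdhb1 were listed at 0 in all 8 libraries. For 21 members every trametinib library lay above every DMSO library, 15 of them beta, 4 gamma and 2 alpha, where the background over the same genes was 9.06%. Some of the 21 separations rested on values under the floor. In Pcdhb15 the highest control was 0.959 (line #10) and the lowest treated library 0.978 (line #1). In Pcdhb2 the same pair was 1.34 and 1.70, both line #1. Pcdha2 and Pcdha9 were 0 in all controls, and 0.840 and 0.799 with trametinib in line #5, about 1 read each. The 39 also include such steps, as in line #5 for Pcdhb12 (0 to 0.800) and Pcdhb13 (0 to 0.799). In bulk RNA, more cells that use a gene and more RNA of it per cell cannot be told apart.

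**Figure D1:**
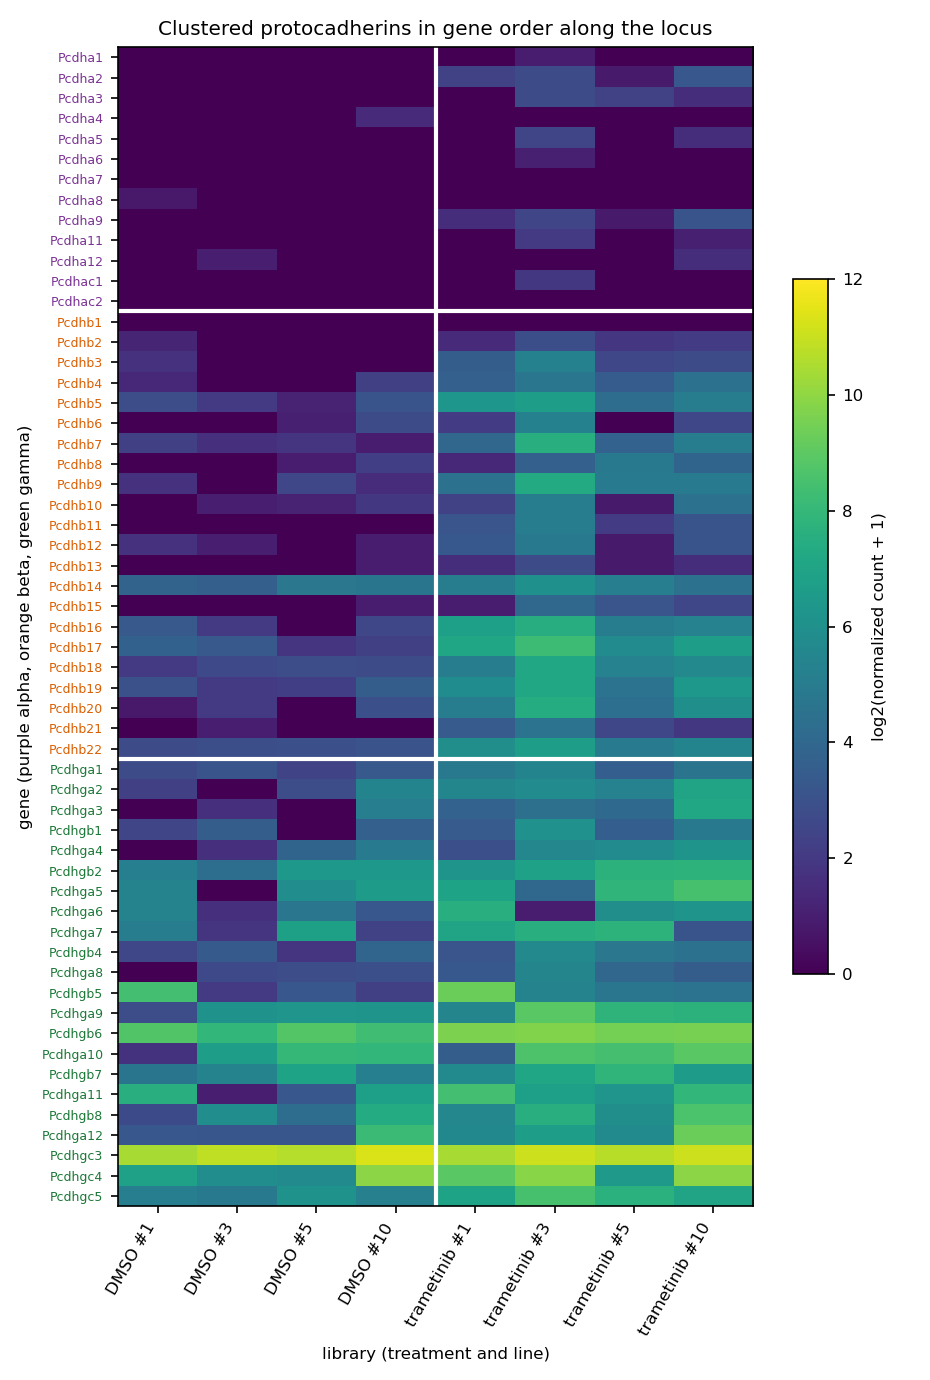
Level of each of the 57 members (vertical axis, in gene order along the locus) in each of the 8 libraries (horizontal axis), coloured by log2(normalized count + 1). The trametinib side is brighter for most beta and gamma members, the alpha members stay near 0, and Pcdhgc3 is bright in all 8 libraries.

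In the limma test, 32 members passed the filter of a mean of at least 10, 10 of the beta and all 22 of the gamma cluster, and 28 of them were called higher and 0 lower. The background was 27.3% called higher and 25.6% called lower of 15888 genes. No member was lower at an unadjusted p under 0.05 either, with or without the filter. A gene that passes the filter only through its trametinib libraries had to differ, as 14 of the 32 did, all of them called, against 51.5% of such genes. The count was therefore also taken for the 18 members with a DMSO mean of at least 10 (1 beta, 17 gamma). Of these, 14 were called higher, all of the gamma cluster, against 26.1% of such genes, and the median log2 fold change of the 18 was 1.91 against 0.02 for all such genes. Without any filter, 54 members could be fitted and 36 were called higher (17 beta, 17 gamma, 2 alpha) and 0 lower, against 13.1% and 12% of the 31080 genes.

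**Figure D2:**
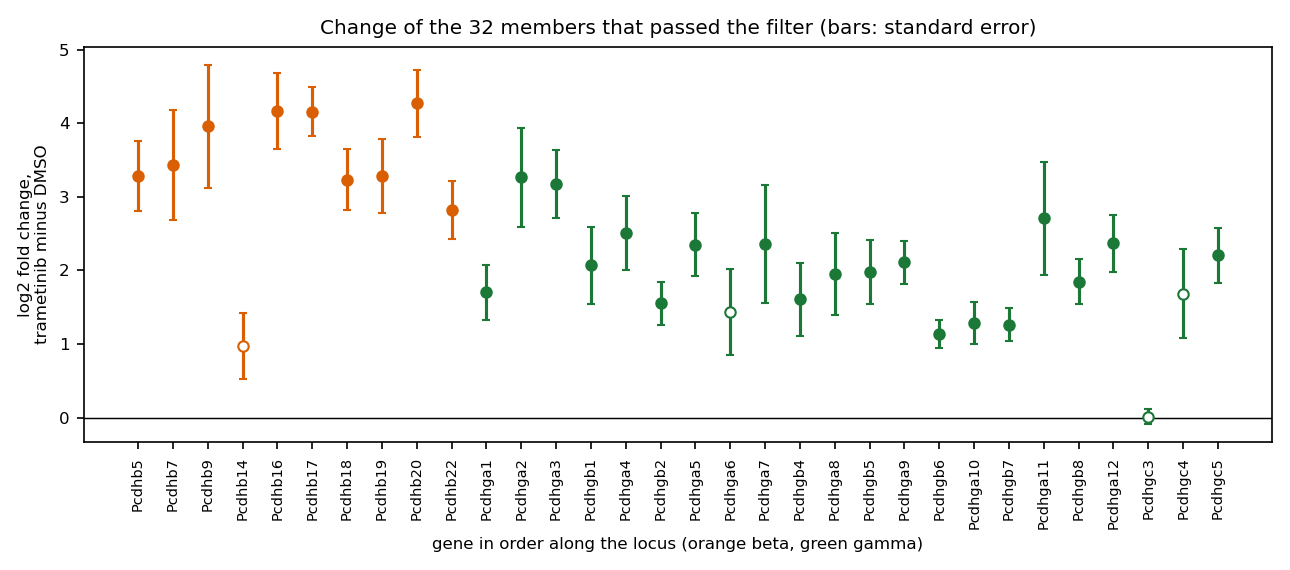
Log2 fold change with trametinib (vertical axis, bars are standard errors from the limma fit of 4 lines) of the 32 members that passed the filter, in order along the locus. Filled points passed the threshold and open points did not; 31 points lie at 0.98 or more and Pcdhgc3 lies at 0.01.

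The beta cluster spans chr18:37264938-37524479 on the plus strand of GRCm38, and in the GENCODE annotation all 22 of its members are single-exon genes. Between 77.5 and 100% (median 88.2) of the 31-base words of a beta transcript occur in no other gene, so most of their reads can be told apart. Added up, beta counts were low in all 4 DMSO libraries and higher in all 4 trametinib libraries. The sum was 71.7 with DMSO and 633 with trametinib in line #1, 50.1 and 1809 in #3, 57.0 and 356 in #5, and 92.6 and 592 in #10. The lowest trametinib library thus stood above the highest DMSO library. The mean log2 ratio was 3.39 ± 1.19 (SD, n = 4), an average ratio of 10.5-fold, with 36.1-fold in line #3 and 6.23- to 8.83-fold in the others. Without line #3 the average was 6.98-fold. Over the DMSO libraries the whole cluster rested on about 284 reads, and over the trametinib libraries on about 3641.

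Single beta members are given below in the order of lines #1, #3, #5 and #10. Pcdhb17 stood at 12.4, 9.37, 2.48 and 3.84 normalized counts with DMSO and at 135, 302, 55.2 and 101 with trametinib. It rose 10.9-, 32.2- and 26.3-fold in lines #1, #3 and #10, while its DMSO value in #5 was under the floor, with a log2 fold change of 4.16 (SE 0.33, adjusted p = 0.00032 in limma), and had the highest beta level per kilobase of transcript in all 4 trametinib libraries. Its ranges with and without drug did not overlap. Pcdhb20 went from 0.776, 3.12, 0 and 6.72 to 33.3, 171, 19.997 and 61.6 (log2 fold change 4.27, SE 0.46, adjusted p = 0.00068). Pcdhb16 went from 9.31, 3.13, 0 and 4.799 to 108, 177, 31.98 and 39.5 (log2 fold change 4.17, SE 0.51, adjusted p = 0.0011). The ranges of Pcdhb20 and Pcdhb16 did not overlap either, and all 3 genes passed the filter only through their trametinib libraries.

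Of the other members downstream in the cluster, Pcdhb18 rose from 3.10, 5.21, 6.21 and 5.76 to 32.4, 144, 39.2 and 49.1 (log2 fold change 3.23, SE 0.42, adjusted p = 0.0012). Pcdhb19 rose from 6.99, 3.13, 3.72 and 10.6 to 55.9, 140, 22.4 and 84.7 (3.28, SE 0.50, adjusted p = 0.002). Pcdhb22 rose from 5.93, 6.37, 6.64 and 7.33 to 59.3, 102, 29.3 and 42.0 (2.82, SE 0.39, adjusted p = 0.0015). The trametinib value of each of the 3 was highest in line #3, and none of their ranges overlapped. Upstream, Pcdhb5 rose from 6.21, 3.12, 1.24 and 7.67 to 77.4, 101, 18.4 and 32.7 (3.29, SE 0.47, adjusted p = 0.0017). Pcdhb7 rose from 3.88, 2.08, 2.48 and 0.959 to 14.7, 192, 12.8 and 32.7 (3.44, SE 0.75, adjusted p = 0.0082), and Pcdhb9 from 2.33, 0, 4.96 and 1.92 to 21.5, 161, 28.8 and 29.8 (3.96, SE 0.84, adjusted p = 0.0074). The last pair had the widest errors of the cluster, with line #3 far above the other lines under trametinib, and without that line their log2 fold changes were 2.59 and 2.83 and that of Pcdhb19 was 2.68. All 6 genes passed the filter only through their trametinib libraries, as genes that had to differ, and their p-values are read with that limit.

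Of the 10 beta members tested, 9 passed the filter only through trametinib and so had to differ. Pcdhb14, the only one with a DMSO mean of at least 10, was also the only one not called, a contrast set in part by the filter. It was the beta gene with the highest mean DMSO level per kilobase, at 13.2, 11.5, 26.1 and 24.01 with DMSO and 33.4, 64.5, 33.6 and 22.1 with trametinib, and its ranges overlapped. Its log2 fold change of 0.98 (95% confidence interval -0.10 to 2.05, adjusted p = 0.11 in limma) did not pass the threshold.

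The remaining 12 beta members, Pcdhb1 at 0 among them, stayed below the filter. Pcdhb11 was listed at 0 in all 4 DMSO libraries and at 7.84, 31.8, 3.20 and 7.70 with trametinib, about 8, 34, 4 and 8 reads. Against the DMSO floor of 3 reads per library it was at least 3.37-, 10.2- and 2.68-fold higher in lines #1, #3 and #10, while its value in line #5 lay under the floor of the DMSO library of that line. Pcdhb3 went from 2.33, 0, 0 and 0 to 10.8, 37.4, 4.797 and 5.77, and Pcdhb4 from 1.55, 0, 0 and 3.84 to 11.8, 25.3, 10.4 and 22.1, without overlap. In the fit without a filter these 3 passed, as did Pcdhb2, Pcdhb8, Pcdhb12, Pcdhb15 and Pcdhb21, whereas Pcdhb6 (adjusted p = 0.34), Pcdhb10 (adjusted p = 0.07) and Pcdhb13 (adjusted p = 0.061 in limma) did not. Pcdhb6 read 0, 0, 1.04 and 5.79 with DMSO and 3.30, 37.5, 0 and 4.86 with trametinib, higher in lines #1 and #3 and lower in #5 and #10. The number of beta members above the floor was 10, 8, 5 and 12 of 22 with DMSO and 17, 21, 17 and 20 with trametinib.

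**Figure D3:**
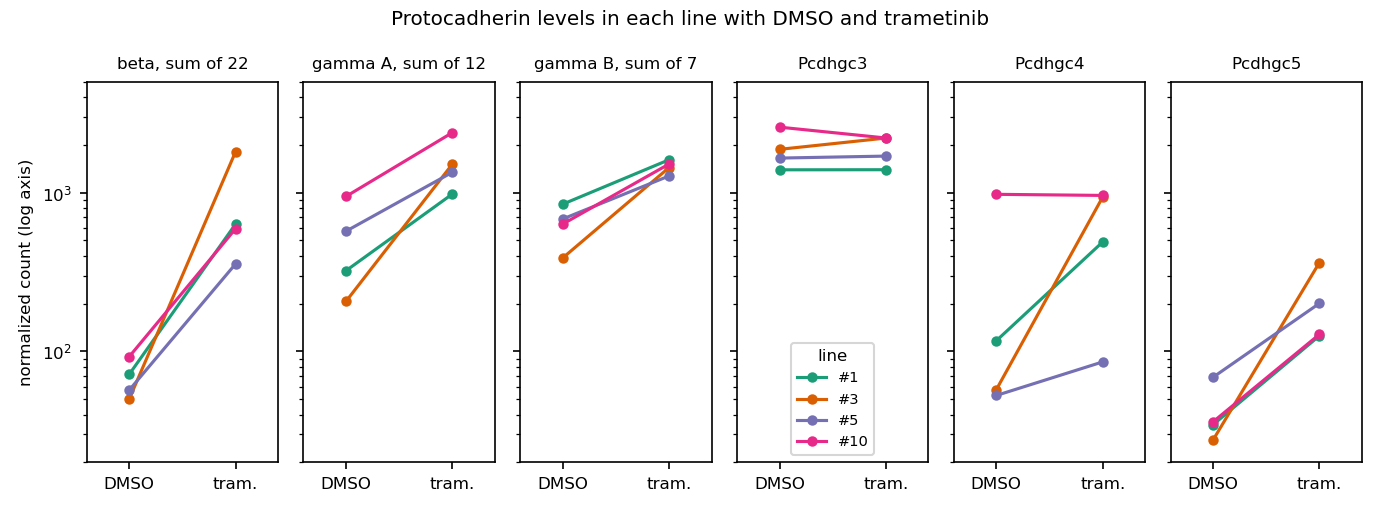
Normalized counts (log vertical axis) with DMSO and with trametinib (tram.) for the sum of the 22 beta, 12 gamma A and 7 gamma B members and for the 3 gamma C-type genes; each line joins the 2 libraries of 1 cell line. The beta sum is higher with trametinib in all 4 lines (6.23- to 36.1-fold) and Pcdhgc3 stays between 1389.98 and 2579.8 in all 8 libraries.

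The gamma cluster spans chr18:37661793-37841873 on the same strand, with 3 or 4 exons per member, the last of them shared. Only 32.2 to 78.7% (median 52.6) of the 31-base words of a gamma transcript occur in no other gene. Reads from the shared exons can be given to a member only by estimation, which limits the single values. With trametinib, the sum over gamma A went from 322 to 979 in line #1, 206 to 1510 in #3, 571 to 1342 in #5 and 945 to 2383 in #10. That over gamma B went from 845 to 1609, 388 to 1437, 682 to 1272 and 633 to 1513 in the same order. The mean log2 ratio was 1.76 ± 0.75 for gamma A and 1.24 ± 0.46 for gamma B (SD, n = 4), both highest in line #3, at 7.31-fold and 3.71-fold. In limma, 11 of 12 gamma A and 7 of 7 gamma B members were called higher, which includes 5 that passed the filter only through trametinib (Pcdhga1, Pcdhga3, Pcdhgb1, Pcdhgb4 and Pcdhga8). The background was 27.3% of all genes tested, and 51.5% of those that passed only through trametinib. In a fit without the block for the line, 4 of the 22 gamma genes passed, against 19 with it. Of all 15888 genes tested, 2205 were called higher without the block and 4341 with it.

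Pcdhgb6 had the highest level per kilobase of the 19 gamma A and B members in each of the 8 libraries. It stood at 428, 246, 442 and 321 normalized counts in lines #1, #3, #5 and #10 with DMSO and at 782, 846, 717 and 745 with trametinib. The groups did not overlap, and the gene rose 1.83-, 3.44-, 1.62- and 2.32-fold (log2 fold change 1.14, SE 0.19, adjusted p = 0.0029 in limma). Its level did not pass the test for a difference between lines (adjusted p = 0.62). With trametinib the 4 lines lay closer together than with DMSO.

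The member in second place was Pcdhgb5 in line #1, Pcdhga10 in #5 and Pcdhga12 in #10 under both treatments, and in #3 Pcdhga10 with DMSO and Pcdhga9 with trametinib. Pcdhgb5 read 342 with DMSO and 637 with trametinib in line #1, but 3.10, 8.61 and 3.89 with DMSO and 40.1, 24.8 and 22.4 with trametinib in #3, #5 and #10. Pcdhga12 read 285 and 630.4 in line #10, but 8.71, 8.18 and 8.36 with DMSO and 48.1, 106 and 50.1 with trametinib in #1, #3 and #5. Pcdhga10 read 106, 254 and 243 with DMSO and 396, 353 and 479 with trametinib in #3, #5 and #10, but 2.33 and 10.8 in line #1. All of these genes rose with trametinib in each line and differed between lines by the limma F test (adjusted p = 0.0049 for Pcdhgb5, 0.0075 for Pcdhga12 and 0.0011 for Pcdhga10). Their log2 fold changes were 1.98 (SE 0.43, adjusted p = 0.0082), 2.37 (SE 0.39, adjusted p = 0.0028) and 1.29 (SE 0.28, adjusted p = 0.0087).

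Levels differed between lines for 11 of the 32 members tested, all gamma (7 A, 3 B and Pcdhgc3). This share is not far above the background of 27.6% of the genes tested. This count was 4 without line #1, 7 without line #10 and 15 without line #3. Pcdhga9 was the reverse of Pcdhgb5: it read 6.18 in line #1 with DMSO against 69.4, 74.7 and 73.8 in #3, #5 and #10, and rose to 42.6, 491, 221 and 208 (log2 fold change 2.11, SE 0.29, adjusted p = 0.0015; between lines, adjusted p = 0.0077). Pcdhgb8, which the annotation lists as a polymorphic pseudogene, read 5.38, 58.8, 18.5 and 165 with DMSO and 45.6, 186, 60.2 and 386 with trametinib (log2 fold change 1.85, SE 0.31, adjusted p = 0.003; between lines, adjusted p = 0.0065). Pcdhgb7 was highest in line #5 under both treatments, at 24.1, 40.6, 125 and 35.5 and then 52.9, 132, 227 and 96.3 (1.26, SE 0.23, adjusted p = 0.0038). Line #10 in turn held most Pcdhga3, at 0, 2.08, 0 and 34.5 with DMSO and 12.7, 20.6, 16.0 and 142 with trametinib (3.17, SE 0.46, adjusted p = 0.0018).

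The order of the members within a line was largely kept under the drug. Over the 19 gamma A and B members, Spearman's rho between the DMSO and the trametinib library of a line was 0.93 in #1, 0.72 in #3, 0.93 in #5 and 0.95 in #10. Between the DMSO library of 1 line and the trametinib library of another it was -0.06 to 0.59, with a median of 0.37 over 12 pairs. These are descriptions: the members share their gene lengths and constant exons in all libraries, and each library enters several pairs. With DMSO 16, 11, 16 and 19 of the 19 members were above the floor, and with trametinib 19, 18, 19 and 19.

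**Figure D4:**
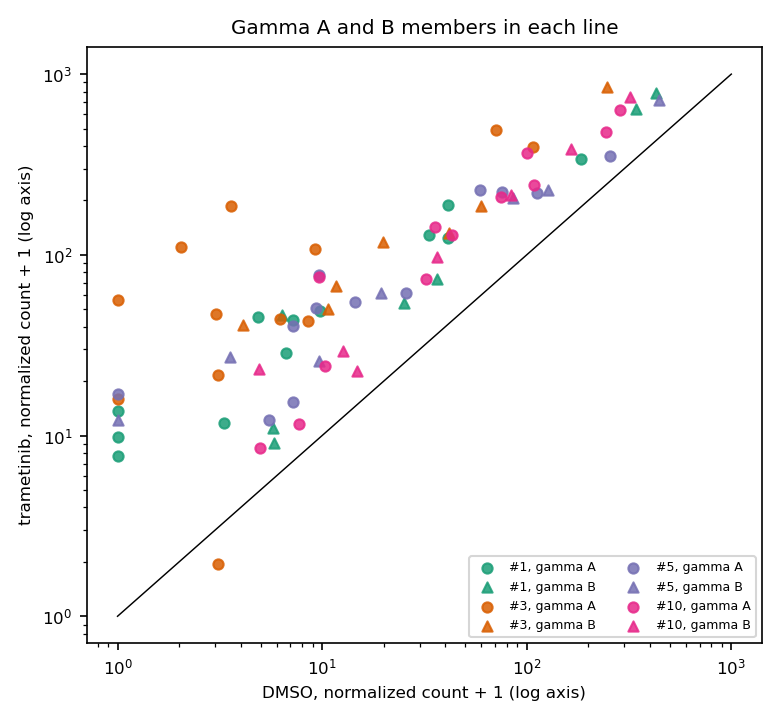
Each point is 1 gamma A (circle) or gamma B (triangle) member in 1 line, with its DMSO level on the horizontal and its trametinib level on the vertical axis (normalized count + 1, both log axes); the diagonal marks equal levels. Of the 76 points 75 lie above the diagonal, farther from it at low DMSO levels, and Pcdhga6 in line #3 lies below it.

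Gamma A and B members were higher with trametinib over the whole range of starting levels, with 1 exception at a low level. Of the 37 pairs of a gamma A or B member and a line with a DMSO value under 10, 36 were higher, with a median log2 ratio of 2.81. From 10 to 100 it was 25 of 25, with a median of 1.59, and from 100 upwards 14 of 14, with a median of 0.97 (0.47 to 1.89). In normalized counts the median difference went the other way, at 21.9, 91.2 and 256. Low DMSO values favour a high ratio by their choice, and pairs of 1 line share their libraries, so no test was made.

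Among further gamma A members, Pcdhga5 rose from 40.4, 0, 58.3 and 98.8 to 123, 15.0, 226 and 364 (2.35, SE 0.43, adjusted p = 0.0041), and was lowest in line #3 under both treatments. Pcdhga11 rose from 182, 1.04, 8.69 and 107 to 338, 109, 76.8 and 244 (2.71, SE 0.77, adjusted p = 0.024), and Pcdhga7 from 32.1, 2.58, 111 and 3.96 to 128, 185, 218 and 7.58 (2.36, SE 0.80, adjusted p = 0.044). In line #3 both went from under the floor to over 100, and without it their log2 fold changes were 1.69 and 1.24. The call of Pcdhga7 was also lost with quantile normalization (adjusted p = 0.09), median centring (0.051), no filter (0.073) and eBayes without trend (0.086), and that of Pcdhga11 with the last (0.058 in limma). Pcdhga2 rose from 3.88, 0, 6.21 and 42.2 to 44.1, 55.2, 39.2 and 127 (3.27, SE 0.67, adjusted p = 0.0066), Pcdhga4 from 0, 2.04, 13.4 and 31.1 to 6.73, 45.9, 54.1 and 72.7 (2.51, SE 0.50, adjusted p = 0.006), and both were highest in line #10. Without line #3 the log2 fold change of Pcdhga2 was 2.42. At low levels, Pcdhga1 rose from 5.65, 7.57, 4.52 and 9.31 to 27.5, 42.0, 11.1 and 23.4 (1.70, SE 0.37, adjusted p = 0.0082), and Pcdhga8 from 0, 5.21, 6.21 and 6.72 to 8.82, 43.0, 14.4 and 10.6 (1.95, SE 0.56, adjusted p = 0.025). Their groups did not overlap, whereas those of the other 5 did.

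Pcdhga6 was the gamma A member that did not pass (log2 fold change 1.43, 95% confidence interval 0.03 to 2.84, adjusted p = 0.079 in limma). It read 40.4, 24.8 and 8.64 in lines #1, #5 and #10 with DMSO and 187, 60.8 and 74.1 with trametinib, and was under the floor in line #3 at 2.08 and 0.935. Without line #3 its log2 fold change was 2.14 (adjusted p = 0.0043), and without #1, #5 or #10 it was 1.183, 1.49 and 0.92 (adjusted p = 0.24, 0.16 and 0.26 in limma). Among further gamma B members, Pcdhgb2 rose from 35.3, 18.9, 84.6 and 83.1 to 72.7, 117, 205 and 213 (1.55, SE 0.30, adjusted p = 0.0049), Pcdhgb1 from 4.76, 10.7, 0 and 11.6 to 10.1, 65.9, 11.2 and 28.2 (2.07, SE 0.53, adjusted p = 0.015), and Pcdhgb4 from 4.81, 9.68, 2.57 and 13.9 to 8.10, 49.3, 26.2 and 21.9 (1.61, SE 0.50, adjusted p = 0.032). Leaving out 1 line ended the calls of Pcdhga7 (#1 or #5), Pcdhga8 (#1), Pcdhga11 (#5) and Pcdhgb4 (#3 or #5). Pcdhga8 without line #3 and Pcdhga3 without line #10 fell below the filter and were not tested. The call of Pcdhga8 was also lost with a pseudocount of 0.1 (adjusted p = 0.053) and quantile normalization (0.069), and that of Pcdhgb4 with quantile normalization (0.083) and no filter (0.065 in limma).

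The C-type genes at the end of the gamma cluster differed from each other in their values. Pcdhgc3 had by far the highest level per kilobase of all members, 399 with DMSO and 399.8 with trametinib as means over the lines, against 76.7 and 165 for Pcdhgb6. Its normalized counts were 1389.98, 1870.2 and 1648 with DMSO and 1392, 2203 and 1696 with trametinib in lines #1, #3 and #5, and fell from 2579.8 to 2204 in #10, a difference of opposite sign. Its log2 fold change was 0.01 (SE 0.10, 95% confidence interval -0.23 to 0.25, adjusted p = 0.92 in limma), with a sign that turned when libraries were centred on their median (-0.0457) or line #3 was left out (-0.061). Measured per kilobase, its share of the gamma cluster was 51.6, 73.7, 54.9 and 50.9% with DMSO and 30.7, 35.0, 37.3 and 31.3% with trametinib. The share was lower in every trametinib library than in any DMSO library.

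Pcdhgc5 rose from 34.6, 27.7, 68.7 and 36.0 to 125, 362.5, 201 and 128, or 3.63-, 13.1-, 2.92- and 3.56-fold (log2 fold change 2.21, SE 0.37, adjusted p = 0.0031), and its groups did not overlap. Pcdhgc4 read 117, 57.4 and 52.8 in lines #1, #3 and #5 with DMSO and 488.5, 936 and 85.9 with trametinib. In line #10 it was high without the drug, at 974, and stood at 959 with it. Its log2 fold change of 1.68 (95% confidence interval 0.24 to 3.13, adjusted p = 0.053 in limma) did not pass the threshold, and without line #10 it was 2.25 (adjusted p = 0.027). Leaving out another line gave 0.91 (#3, adjusted p = 0.084), 1.56 (#1, adjusted p = 0.15) and 2.01 (#5, adjusted p = 0.066 in limma).

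The alpha cluster, at chr18:36930184-37187661 on the same strand, was close to undetected. Of its 13 members none was above the floor in any DMSO library, and 1, 5, 1 and 2 were above it with trametinib in lines #1, #3, #5 and #10. The whole cluster amounted to about 4 reads over the DMSO libraries and 69 over the trametinib libraries, and no member reached the filter. Pcdha2 and Pcdha9, listed at 0 in all DMSO libraries, were at 4.12, 5.89, 0.840 and 8.71 and at 1.96, 4.67, 0.799 and 7.70 with trametinib, and both passed in the fit without a filter (adjusted p = 0.012 and 0.019 in limma). Such values are near the limit of the depth. Alpha transcripts also share most of their bases, with 2.18 to 51.6% (median 35.9) of 31-base words found in no other gene, so the single alpha values are uncertain.

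Other protocadherins, encoded outside the clusters, were looked at beside them. Of 12 listed, 6 passed the filter, 3 of these rose and 0 fell. They were Pcdh1 (3546 ± 608 to 5364 ± 1526 normalized counts, SD, n = 4, log2 fold change 0.57, adjusted p = 0.036), Pcdh15, a protein of the hair cell tip link (8.02 ± 1.56 to 41.7 ± 28.4, log2 fold change 1.96, adjusted p = 0.011) and Pcdh18 (log2 fold change 1.33, adjusted p = 0.027 in limma). The call of Pcdh1 was lost when any of the lines #1, #3 and #10 was left out, that of Pcdh18 without #1 or #10 and that of Pcdh15 without #1. Pcdh15 passed the filter only through its trametinib libraries and so had to differ. Of 11 classical cadherins and catenins, 9 were tested, 6 rose and 0 fell, against 27.3% and 25.6% of all genes tested. Cdh6 rose by 3.06 on the log2 scale (adjusted p = 0.00057) and Cdh2, N-cadherin, by 1.13 (adjusted p = 0.0008), while the E-cadherin gene Cdh1 stood at 24588 ± 3855 with DMSO and 24100 ± 2562 with trametinib (SD, n = 4, adjusted p = 0.88). The median log2 fold change was 0.89 for the first list and 0.73 for the second, against 0.07 for all genes tested.

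Genes such as those of CTCF, cohesin, silencing and DNA methylation, 25 in all, were listed as possible regulators of the locus. All were tested, 5 rose and 13 fell, with a median log2 fold change of -0.41, against 27.3% and 25.6% of all genes tested. The insulator protein gene Ctcf fell from 4315 ± 214 to 2629 ± 342 normalized counts (log2 fold change -0.72, SE 0.09, adjusted p = 0.0012). Rad21, a cohesin subunit, fell from 13953 ± 2070 to 8594 ± 1971 (-0.72, SE 0.09, adjusted p = 0.0012), and Stag1, another subunit, by 0.95 (adjusted p = 0.0007 in limma). Each was lower in 4 of 4 lines. Among the genes of silencing, Smchd1 fell from 5615 ± 515 to 3698 ± 617 (-0.61, adjusted p = 0.0024), and Setdb1, a histone H3 lysine methyltransferase, from 4963 ± 436 to 3682 ± 590 (-0.44, adjusted p = 0.0068). Uhrf1 and Dnmt1, which copy DNA methylation at replication, fell by 1.85 (adjusted p = 0.00091) and 1.35 (adjusted p = 0.00095 in limma). Dnmt3a, which places new methyl groups, rose from 1169 ± 282 to 2258 ± 236 (0.98, adjusted p = 0.0012), and Tet2, which oxidises them, rose by 0.86 (adjusted p = 0.0014 in limma). Dnmt3b, the methyltransferase best known at these promoters, stood at 83.3 ± 30.0 and 92.0 ± 34.1 (SD, n = 4, adjusted p = 0.71). The part of any of these genes in the values of the clusters was not tested, and DNA methylation was not measured.

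Genes beside the clusters were looked at for comparison. Of 16 neighbours on either side and between the clusters, 15 were tested, 2 rose and 5 fell, with a median log2 fold change of -0.17, where 27.3% of all genes tested rose and 25.6% fell. Taf7, a subunit of the general transcription factor TFIID that lies between beta and gamma at chr18:37640491-37644204, stood at 166 ± 30.5 with DMSO and 173 ± 59.9 with trametinib (log2 fold change 0.01, adjusted p = 0.95). Directly after the gamma cluster, Diaph1, a formin, fell by 0.30 (adjusted p = 0.02) and Hdac3, a histone deacetylase, by 0.39 (adjusted p = 0.0053 in limma). Farther on, Fchsd1 rose by 1.17 (adjusted p = 0.002) and Rell2 by 1.00 (adjusted p = 0.031), a call that was lost without line #10. Taf7 and Diaph1 were picked for their place after their values were seen.

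Among 22 genes of protocadherin signaling and processing, 19 were tested, 8 fell and 3 rose (median log2 fold change -0.16), against 25.6% and 27.3% of all genes tested. Fyn, a Src family kinase, rose by 1.58 (adjusted p = 0.00064), the sheddase gene Adam10, whose product cuts gamma protocadherins, by 0.88 (adjusted p = 0.007), and Ptk2b, the focal adhesion kinase relative that protocadherins inhibit, by 0.62 (adjusted p = 0.012 in limma). Abi2, a subunit of the WAVE complex that binds protocadherin tails, fell by 1.02 (adjusted p = 0.0011), and the receptor kinase gene Ret by 1.25 (adjusted p = 0.033 in limma), a call that was lost without line #1, #5 or #10.

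Markers of other cell types were summed in each library. The background for the calls below was 27.3% of all genes tested called higher and 25.6% called lower. Of 8 neuronal markers, 5 were tested, 3 rose and 0 fell: Tubb3 by 2.24 (adjusted p = 0.011), Map2 by 1.96 (adjusted p = 0.00031) and Stmn2 by 1.45 (adjusted p = 0.026 in limma, lost without line #1, #3 or #5). Nefl, a neurofilament gene, was lower in 4 of 4 lines at 24.7 ± 20.8 and 10.2 ± 8.86 (SD, n = 4, log2 fold change -1.10, adjusted p = 0.056 in limma) and did not pass. The sum over the 8 neuronal markers was 510.2 to 1246 with DMSO and 1939 to 4139 with trametinib, most of it Tubb3 and Map2. The defining neuronal gene Elavl4 was at 0 in all 8 libraries and Rbfox3 at 0 in all 4 with trametinib. Of 8 Schwann cell and glial markers, 2 were tested and 0 called, Sox10 and Foxd3 were under the floor throughout, and the sum, most of it Erbb3, was 348 to 1992 and 442 to 1184. S100b of this list, below the filter, went from 1.55, 0, 3.72 and 0.957 to 11.7, 5.63, 12.8 and 6.72, without overlap. For the 6 endothelial markers the sum was 38.1 to 82.9 with DMSO and 75.5 to 1779 with trametinib. Of these, 4 were tested and 2 were higher, Tek and Vwf. Tek passed the filter only through trametinib, and the call of Vwf was lost without line #1 or #3. For the 10 fibroblast markers (4 tested, 0 called) the sum was 67.9 to 239 and 64.5 to 154. Of 8 macrophage markers, 6 were in the deposited table, 5 were tested and 1 was higher, Csf1r. Their sum was 1122 to 2668 and 1339 to 3807, most of it Cd14, which is also a neighbour of the clusters. Of 8 epithelial markers 7 were tested, 1 rose and 5 fell, and their sum was 220959 to 347703 with DMSO and 113439 to 221939 with trametinib. Keratin genes were abundant in all 8 libraries, while Epcam was listed at 0 in lines #1, #5 and #10. The part of these markers in the protocadherin values was not tested.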

How the data were processed

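PolyA RNA of 4 PDAC lines was sequenced after 48 h of trametinib and from DMSO controls. The authors deposited a table of normalized counts per gene symbol, a signal scaled so that libraries can be compared, and all of its 8 columns were used. The submitters' processing notes name CASAVA 2.17, Salmon 0.12, DESeq2 1.18 and mm10, with no further settings. Whole reads were not recovered, since 40.4 to 62.4% of low values (under 20 steps) were whole multiples of a read within 0.02 of a step, so no count test was run, and depth is an estimate from those steps.

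The log2 of each value plus 1 was fitted in R 4.3.3 by limma 3.58.1 (lmFit, eBayes with trend, cell line as a block, genes with a mean of at least 10, Benjamini-Hochberg, threshold 0.05). Libraries of a line are paired because they hold the same cell line, and their deviations from the treatment means correlated at 0.63 to 0.72 across genes. Differences between lines were tested with the moderated F test of the same fit. On simulated data for trametinib against DMSO the fit recovered 66 of 92 genes changed by 1 and 91 of 94 changed by 2 on the log2 scale among 15195 genes, and called 15 unchanged genes. Sums over members are described with no test. Per-kilobase levels divide by the longest GENCODE M21 transcript on GRCm38, matched by symbol, of which the symbol Pcdha11 has 2 genes. The words of 31 bases were counted over all transcripts of that annotation. Python 3.11.15, numpy 2.4.6, pandas 2.3.3 and matplotlib 3.10.9 were used.

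The members and gene lists were chosen with earlier results of these data known. Members that passed the filter, or were above the floor in at least 1 library, may be named, and from every other list at most 5 genes with an adjusted p under 0.05 and the largest change, plus Ctcf, Rad21, Smchd1, Setdb1, Dnmt3b and Dusp6. Pcdhac1 and the 3 members at 0 in all libraries are named outside this rule. Other genes named (Cdh1, Nefl, Taf7, Diaph1, S100b, Erbb3, Cd14 and the markers given as at 0 or under the floor) were chosen after their values were seen. The alternatives were pseudocounts of 0.1 and 5, equal totals, quantile normalization, median centring, no filter, a filter at 50, no block, eBayes without trend or with robust estimation, and leaving out each line. One further allele of the mouse model, shared by all groups, is not reported here.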

Additional observations from a re-analysis of the deposited data

Results flagged for a closer look

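Values of the members were looked at in 117 groups of 4 lines (DMSO counts, trametinib counts and log2 ratios), and in 16 of them 1 line stood far from the other 3 by Dixon's test. Chance flags about 1 in 20 groups, here about 5.85, and members of 1 library are not independent.

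With trametinib, line #3 stood apart for Pcdhb7 (192, against 12.8 to 32.7 in the other lines), Pcdhb9 (161, against 21.5 to 29.8), Pcdhb18 (144, against 32.4 to 49.1) and Pcdhga8 (43.0, against 8.82 to 14.4). The log2 ratio of line #3 stood apart for Pcdhga5 (3.996, against 1.59 to 1.94) and Pcdhgc5 (3.66, against 1.53 to 1.83).

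Line #10 stood apart with DMSO for Pcdhga2 (42.2, against 0 to 6.21), Pcdhga3 (34.5, against 0 to 2.08), Pcdhga12 (285, against 8.18 to 8.71) and Pcdhgc4 (974, against 52.8 to 117). It did so again with trametinib for Pcdhga3 (142, against 12.7 to 20.6) and Pcdhga12 (630.4, against 48.1 to 106). Line #1 stood apart for Pcdhgb5 with DMSO (342, against 3.10 to 8.61) and with trametinib (637, against 22.4 to 40.1), and, on the low side, for Pcdhga9 with DMSO (6.18, against 69.4 to 74.7). Line #5 stood apart for Pcdhgb7 with DMSO (125, against 24.1 to 40.6). Pcdhga3, Pcdhga12 and Pcdhgb5 thus had the same outlying line with and without the drug.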

How the results depend on the processing

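The 28 members called higher kept their direction in each alternative that tested them, 13 passed the threshold in each of these, and 24 did apart from the fit without the block and those that left out a line. The filter at 50 tested 15 of the 32 members, Pcdhga3 was not tested without line #10, and Pcdhga8 was not tested without line #3. The count was 13 of 15 tested with a filter at a mean of 50 (1 of 1 beta, 12 of 14 gamma), 17 of 21 beta members passed with no filter, and leaving out each line gave 27 to 28 of 31 to 34 tested, with 9 to 11 of 10 to 12 beta and 16 (without #5) to 19 of 21 to 22 gamma members. Without the replicate block, which sets the pairing of libraries by line aside, 13 of 32 members passed (9 beta, 4 gamma), and no member was called lower in any setting. The fit without the block called 2205 of all 15888 genes higher, against 4341 in the main fit. These 9 beta members, and Pcdhga1 of the 4 gamma members, had passed the filter only through trametinib and so had to differ. The same holds for them among the 13 that passed in each alternative. The others of the 13 were Pcdhga2, Pcdhgb6 and Pcdhgc5. Members that differed between lines numbered 4 to 15 when 1 line was left out. The log2 fold change turned its sign for Pcdhgc3 with median centring (-0.0457) and ranged from -0.061 (without line #3) to 0.093 when lines were left out. That of Dnmt3b turned with quantile normalization (-0.35) and ranged from -0.16 (without line #1) to 0.33. The cause was not tested. Over 429 results of single members, 393 kept direction and call, 30 lost the call, 4 gained it and 2 changed sign. Pcdhga6 also passed with a pseudocount of 5 (adjusted p = 0.041 in limma), and Pcdhgc4 with equal totals (adjusted p = 0.041). The median of all genes moved from 0.07 to 0.20 with equal totals and to -0.03 with quantile normalization. Outside the clusters, the calls of Cdh3, Cldn7, Csf1r, Fchsd1, Fyn, Hars, Hdac3, Krt18, Krt7, Krt8, Pcdh1, Pcdh18, Ptk2b, Rell2, Ret, Setdb1, Stmn2, Tet2 and Vwf were lost without the block. Sums over clusters moved by less than the spread between lines. Depth limits the alpha cluster and most DMSO values of the beta cluster, which lie near 3 reads.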
